A study of Homo sapiens with 9 samples.

Results

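The NEDD4 family of HECT ubiquitin ligases was followed by its guides in a pooled sgRNA screen of temozolomide-treated U251 cells. The members were chosen by target name, as all guides whose gene was NEDD4, NEDD4L, ITCH, WWP1, WWP2, SMURF1, SMURF2, HECW1 or HECW2. This gave 90 of the 11170 guides in the table, 10 for each of 9 genes among 1117 targeted genes. U251 is an established human glioma line, and temozolomide is a DNA-alkylating drug used against glioma. Cells that stably carried sgRNAs were kept in DMEM with serum and treated for 72 hours, and the guides in their DNA were counted. The groups were untreated cells (0 µM) and cells at 200 and 1500 µM temozolomide, with 3 libraries each and replicate numbers 1 to 3 at every dose. The titles give these doses in µM and the treatment protocol gives them in nM, so the µM of the titles serve here as names of the groups. The 72 hours are stated for the treated groups, and no time of collection was read for the untreated cells. A difference in time between the groups could not be told apart from dose. The labels name no nuclease, vector or time since infection, and do not say whether a replicate number marks a culture of its own. P-values therefore measure only how far these libraries differ among themselves, and that spread can be technical. Guide counts hold no expression values, so the identity of the line was not checked.

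HECT ligases take ubiquitin from a conjugating enzyme (E2) onto a cysteine of their own HECT domain before they pass it to a substrate. NEDD4 family members join this domain to a membrane-binding C2 domain and to WW domains, which bind proline-rich PY motifs. They act in endocytic sorting, ion channel turnover, TGF-β signalling and control of transcription factors. A guide that becomes rarer under drug marks cells that were outgrown or lost, and one that becomes more frequent marks cells that persisted. Guide identity was by name and number alone (NEDD4.10 is guide 10 against NEDD4).

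Libraries held 1852340 to 2790563 counts, 166 to 250 per guide on average. Levels below are CPM (library-scaled counts) with TMM factors of the summed genes, which lay between 0.862 and 1.07. The fits of single guides used TMM factors of the guides instead, so guide fold changes and guide CPM are on different scales. A count of 0 allows up to 3 counts, or 1.12 to 1.68 CPM depending on the library, for counting error only. Of the 90 family guides, 87 reached 10 counts in at least 3 libraries and were tested. The other 3 were ITCH.7, WWP1.3 and WWP1.6. Between 4 and 7 family guides were at 0 in a given library (4.44% to 7.78%), against 1120 to 1696 of all guides (10.0% to 15.2%).

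The summed level of all family guides was 8909, 8440 and 9898 CPM at 0 µM, 8590, 8760 and 8791 CPM at 200 µM and 8660, 8223 and 8634 CPM at 1500 µM, for replicates 1, 2 and 3. The dose means were 9082 ± 744, 8714 ± 108 and 8506 ± 245 CPM (SD, n = 3), and the libraries of all doses overlapped. Replicate 3 without drug was the highest library. Without TMM scaling, untreated libraries held 0.861%, 0.853% and 1.06% of their counts in the family, libraries of the 200 µM group 0.891%, 0.911% and 0.919%, and libraries of the 1500 µM group 0.834%, 0.709% and 0.884%. On that scale replicate 2 at 1500 µM was the lowest library.

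Without drug, NEDD4L, HECW2 and HECW1 were the most abundant targets of the family, with 1471 ± 612, 1440.0 ± 460 and 1420 ± 364 CPM (SD, n = 3). These ranked 94, 107 and 110 among the 1117 summed genes, whose median was 861 CPM. NEDD4 had 1055 ± 160, SMURF2 1036 ± 713 and ITCH 899 ± 368 CPM. WWP2 had 720 ± 66.6, WWP1 524 ± 184 and SMURF1 518 ± 346 CPM, at ranks 717, 894 and 899. In this order of 9, the gap to the next gene exceeded the SD of both neighbours only between HECW1 and NEDD4 (364 CPM, against SDs of 364 and 160) and between WWP2 and WWP1 (196 CPM). No library was labelled as a start of the screen, and the time of the untreated ones is not stated, so these levels join the make-up of the pool with growth.

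Libraries of one replicate number resembled each other across doses. Over the 87 tested family guides, the replicate number held a median of 77.6% of the spread of log2(CPM + 1) over the 9 libraries and dose held 5.57%. The same medians were 73.1% and 7.09% for all 10337 tested guides. The guide with the highest count of a gene was the same at all 3 doses in 20 of 27 combinations of family gene and replicate number (74.1%, against 59.6% over all genes). It was the same in all 3 replicates at 0 µM for 1 of the 9 genes, NEDD4 (11.1%, against 7.34% of all genes). In most of these combinations treated and untreated libraries of one number were led by the same family guide.

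In several members a single guide made up a large part of the summed level in 1 replicate. SMURF2.3 had 1359.9, 959.6 and 868 CPM in replicate 3 at 0, 200 and 1500 µM, where summed SMURF2 had 1837, 1437 and 1293 CPM. In replicates 1 and 2 the same guide lay between 12.3 and 69.0 CPM at every dose. HECW2.1 had 781, 619 and 861 CPM in replicate 1 at these doses and at most 44.6 CPM in the other replicates. ITCH was led by ITCH.3 in replicate 2, with 846, 887 and 717 CPM, and by ITCH.9 in replicate 3, with 454, 406 and 245 CPM. In replicate 1 SMURF1.5 had 312, 262 and 141 CPM, and in replicates 2 and 3 it was at 0 in 5 of 6 libraries and at 2.43 CPM in the other. HECW1.2 had 877, 505 and 683 CPM in replicate 1 and at most 84.9 CPM elsewhere. At 0 µM an even guide was HECW2.6, the most abundant of its gene over the 9 libraries together, with 398, 399 and 417 CPM. Its replicates lay further apart under drug, with 471, 476 and 310 CPM at 200 µM and 414, 544 and 236 CPM at 1500 µM.

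Treatment at 1500 µM, set against 0 µM, asked which family targets were more or less frequent among the cells that remained at the highest dose. None of the 9 summed genes and none of the 87 guides passed edgeR's quasi-likelihood test at an adjusted p of 0.05. The background of this call was 0% of 10337 guides and 0% of 1117 summed genes, so the test called nothing anywhere. At an unadjusted p under 0.05 it had 0 family guides against 21 of all guides (0.203%), and 0 family genes against 3 of all genes (0.269%). With so few features under that p anywhere, the zeros do not set the family apart. With the replicate number as a block, edgeR called 0% of guides and 1 summed gene, UBE2A (0.0895%), which is no member. With the block, 2 family guides (2.30%) had an unadjusted p under 0.05, against 2.61% of all guides. Of the 9 family genes 1 did, NEDD4L (11.1%, against 6.62% of all genes).

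Of the summed genes, 3 of 9 were below their untreated partner in all 3 numbered pairs (NEDD4, NEDD4L and SMURF2) and none was above it in all 3. Over all genes, 10.6% were lower and 13.9% higher in all 3 pairs. For all 9 genes the 3 libraries of the treated group overlapped those of the untreated group, as they did for all genes but 1.43% (higher) and 0.895% (lower). The median log2 fold change of the 9 members was -0.035, against -0.026 for all summed genes, and with the block -0.022, against -0.0081.

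NEDD4, the ligase after which the family is named and which acts on growth factor receptors and endocytic cargo, had 929, 823 and 1021 CPM at 1500 µM, against 999.7, 931 and 1235 CPM at 0 µM. Each treated library lay below its partner, and the groups overlapped. The log2 fold change was -0.19 ± 0.28 (SE, adjusted p = 0.9996 in edgeR), and -0.19 ± 0.16 with the block, with a 95% interval of -0.52 to 0.15. NEDD4.10, its most abundant guide over all libraries together, had 252, 212 and 223 CPM at 1500 µM, against 320.0, 355 and 406 CPM at 0 µM. All 3 treated values of this guide lay below all 3 untreated ones, and it was the only family guide of 87 (1.15%) that was lower without overlap, against 0.803% of all tested guides. Its log2 fold change was -0.80 ± 0.67 (SE) and, with the block, -0.80 ± 0.29 (unadjusted p = 0.0272, adjusted p = 0.999 in edgeR). The split of the 10 NEDD4 guides depended on the block, with 7 above 0 and a median of 0.074 with it, and 4 above 0 and a median of -0.36 without it. Summed without NEDD4.10, the gene had a log2 fold change of -0.059.

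NEDD4L, known for the turnover of the epithelial sodium channel, had 815, 2082 and 749 CPM at 1500 µM, against 1249, 2163 and 1000.2 CPM at 0 µM. The differences within pairs were -0.62, -0.055 and -0.42 on the log2 scale. The fold change was -0.27 ± 0.49 (SE) without the block and -0.36 ± 0.16 with it (unadjusted p = 0.0436, adjusted p = 0.739 in edgeR). Replicate 2 was the highest library in both groups. NEDD4L.9, its most abundant guide over the 9 libraries together, had 253, 311 and 72.6 CPM at 1500 µM, against 687, 404 and 65.2 CPM at 0 µM. It was lower in replicates 1 and 2 and slightly higher in replicate 3. NEDD4L.9 led its gene in replicate 1 alone, with 31.0% to 55.0% of the NEDD4L counts, and NEDD4L.4 led replicate 2 at every dose. Of the 10 NEDD4L guides 8 were below 0 without the block and 7 with it, with medians of -0.32 and -0.31.

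SMURF1 and SMURF2 act on SMAD proteins and TGF-β or BMP receptors. SMURF2 had 458, 726 and 1293 CPM at 1500 µM, against 472, 799 and 1837 CPM at 0 µM. All 3 pairs were lower, with differences of -0.045, -0.14 and -0.51 on the log2 scale, and the largest step was in replicate 3, where SMURF2.3 dominated. The fold change was -0.33 ± 0.56 (SE), and -0.23 ± 0.17 with the block (adjusted p = 0.810 in edgeR). SMURF1 had 728, 281 and 394 CPM at 1500 µM, against 916, 303 and 334 CPM at 0 µM, with a fold change of -0.15 ± 0.54 on the log2 scale. Its pairs did not share a direction.

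SMURF1.2 had 0, 1.82 and 0 CPM at 1500 µM, against 12.8, 1.29 and 20.2 CPM at 0 µM, which is 0, 4 and 0 counts against 23, 3 and 40. Its fitted log2 fold change of -4.15 ± 2.34 (SE) depends on a few counts and did not pass (adjusted p rounding to 1.00 in edgeR). SMURF1.6 had 26.0, 25.5 and 50.9 CPM, against 132, 28.3 and 62.1 CPM at 0 µM. SMURF1.7 went the other way, with 61.0, 57.0 and 41.6 CPM, against 40.2, 22.3 and 33.3 CPM at 0 µM. Its groups did not overlap on this CPM scale, but their nearest values, 41.6 and 40.2 CPM, lay close together.

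ITCH, a ligase that restrains T cell activation, had 641, 1206 and 782 CPM at 1500 µM, against 519, 1253 and 924 CPM at 0 µM. The replicates ranked 2, 3 and 1 in both groups, and the log2 fold change was -0.035 ± 0.40 (SE). ITCH.5 had 161, 135 and 59.2 CPM at 1500 µM, against 77.1, 77.5 and 46.5 CPM at 0 µM. It was higher in all 3 pairs, with a log2 fold change of 0.67 ± 0.69 (SE) and, with the block, 0.59 ± 0.37, which did not pass.

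WWP1 and WWP2 are close relatives of ITCH within the family. WWP1 had 741, 404 and 711 CPM at 1500 µM, against 517, 344 and 712 CPM at 0 µM. It was higher in replicates 1 and 2 and level in replicate 3, with a log2 fold change of 0.24 ± 0.39 (SE) and, with the block, 0.25 ± 0.18. WWP2 had 696, 656 and 776 CPM at 1500 µM, against 784, 726 and 651 CPM at 0 µM. Its replicates were the most alike of the family at both doses, with SDs of 61.5 and 66.6 CPM, and the fold change was -0.022 ± 0.27 on the log2 scale. WWP2.4, its most abundant guide over all libraries together, had 193, 85.3 and 190 CPM, against 331, 137 and 225 CPM at 0 µM. It was lower in all 3 pairs, and its blocked log2 fold change was -0.72 ± 0.30 (SE, adjusted p = 0.999 in edgeR).

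HECW1, known mainly from neurons, and its relative HECW2 had the fold changes nearest to 0 without the block, 0.0088 ± 0.36 and -0.0043 ± 0.39 on the log2 scale (SE). HECW1 had 1736, 1009.5 and 1545 CPM at 1500 µM, against 1703, 1009.4 and 1546 CPM at 0 µM. The pairs differed by at most 0.028 on the log2 scale, and the 95% interval of the blocked log2 fold change was -0.32 to 0.33. HECW2 had 1915, 1036 and 1362 CPM at 1500 µM, against 1750, 912 and 1658 CPM at 0 µM, with a blocked interval of -0.34 to 0.36. The HECW2 sum was level on the scale of the summed genes. In the guide fits, which used TMM factors of the guides, 8 of the 10 HECW2 guides were below 0 with and without the block. Their medians were -0.25 and -0.22. How much of this contrast comes from the 2 scales was not tested. Over all tested guides 48.9% were above 0 with the block and 43.9% without it. Replicate 2 was lowest for both genes in both groups. HECW1.3 had 58.0, 70.2 and 80.4 CPM at 1500 µM, against 34.1, 38.1 and 41.9 CPM at 0 µM. It was higher without overlap, and its fold change of 0.72 ± 0.63 on the log2 scale (SE) did not pass. HECW1.3 and SMURF1.7 were the only such family guides of 87 (2.30%, against 2.17% of all guides). Overlap was read from CPM with TMM factors of the summed genes, not on the scale of the guide fits.

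The remaining guides with the lowest p-values at this dose were NEDD4.5 and WWP1.7 on the higher side and SMURF2.1 and SMURF2.2 on the lower side. NEDD4.5 had 87, 0 and 44 counts at 1500 µM, against 17, 0 and 5 counts at 0 µM. WWP1.7 had 34, 29 and 185 counts, against 24, 7 and 64 counts at 0 µM. SMURF2.2 had 8, 34 and 120 counts, against 67, 40 and 214 counts at 0 µM. SMURF2.1 had 61, 18 and 85 counts, against 72, 22 and 177 counts at 0 µM. NEDD4.5 was scarce, and in NEDD4.5, WWP1.7 and SMURF2.2 a single library carried much of the sum at 1500 µM. In all, 10 of 87 family guides were higher and 8 lower in all 3 pairs, or 11.5% and 9.20%, against 16.6% and 8.85% of all tested guides.

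At 200 against 0 µM no family guide or summed gene passed edgeR's test, at a background of 0% of 10336 guides and 0% of 1117 summed genes, and the counts with the block were also 0%. At an unadjusted p under 0.05 there were 0 family guides against 14 of all guides (0.135%), and 0 of all genes. With the block edgeR had 1 family guide under it (1.15%, against 2.23% of all guides). It had 2 family genes under it, NEDD4 and WWP1 (22.2%, against 5.37% of all genes). This comparison shares its 3 untreated libraries with the one above, so the values of both are not independent. WWP1 was the only member higher in all 3 pairs and NEDD4 the only one lower in all 3, against 16.8% and 12.6% of all summed genes. None of the 9 differed without overlap, against 1.43% of genes higher and 0.537% lower. The median log2 fold change was -0.16 over the members, against -0.033 over all genes, and with the block -0.030 over the members, against -0.014 over all genes.

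WWP1 had 765, 509 and 791 CPM at 200 µM, against 517, 344 and 712 CPM at 0 µM. The pairs differed by 0.56, 0.57 and 0.15 on the log2 scale. The fold change was 0.37 ± 0.36 (SE) without the block, and 0.41 ± 0.15 with it (unadjusted p = 0.0285, adjusted p = 0.811 in edgeR, 95% interval 0.055 to 0.76). WWP1.1 had 152, 154 and 129 CPM at 200 µM, against 99.97, 86.5 and 91.4 CPM at 0 µM. WWP1.4 had 32.6, 24.8 and 40.0 CPM, against 15.6, 5.14 and 6.57 CPM at 0 µM. Both were higher without overlap, as 2 of 87 family guides (2.30%, against 1.59% of all guides), with log2 fold changes of 0.49 ± 0.59 and 1.65 ± 1.11 (SE). WWP1.2, which led its gene at every dose in replicates 1 and 3 but not in replicate 2, had 489, 107 and 351 CPM, against 346, 68.5 and 305 CPM at 0 µM. These 3 guides were higher in all 3 pairs, and 5 of the 8 tested WWP1 guides had a fold change above 0.

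NEDD4 had 988, 576 and 852 CPM at 200 µM, against 999.7, 931 and 1235 CPM at 0 µM. The first pair was nearly level and the other pairs differed by -0.69 and -0.53 on the log2 scale. The fold change was -0.41 ± 0.32 (SE) without the block, and -0.44 ± 0.16 with it (unadjusted p = 0.0260, adjusted p = 0.811 in edgeR, 95% interval -0.80 to -0.067). NEDD4.10 had 336, 167 and 129 CPM at 200 µM, against 320.0, 355 and 406 CPM at 0 µM. It was higher in replicate 1 and lower in replicates 2 and 3, and its blocked log2 fold change was -1.04 ± 0.37 (SE, adjusted p = 1.00 in edgeR). NEDD4.8 had 43, 6 and 124 counts, against 36, 18 and 340 counts at 0 µM. Of the 10 NEDD4 guides 8 were below 0 without the block, with a median of -0.46, and 7 with it, with a median of -0.30. Without the block HECW2 also had 8 of 10 guides below 0 (median -0.46), and NEDD4L, SMURF1 and SMURF2 had 7 of 10 each. ITCH, WWP1, WWP2 and HECW1 had more guides above 0 than below. Of all guides 42.5% were above 0 in that fit.

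The other 7 members had pairs of mixed direction at 200 µM. NEDD4L had 771, 2234 and 903 CPM, against 1249, 2163 and 1000.2 CPM at 0 µM, a difference of -0.70 on the log2 scale in replicate 1 and of 0.047 and -0.15 in replicates 2 and 3. ITCH had 666, 1436 and 877 CPM, against 519, 1253 and 924 CPM at 0 µM, and a log2 fold change of 0.13 ± 0.43 (SE). WWP2 had 670.0, 899.95 and 824 CPM, against 784, 726 and 651 CPM at 0 µM. SMURF1 had 733, 274 and 395 CPM, against 916, 303 and 334 CPM at 0 µM. For ITCH only replicate 3 was lower, for WWP2 only replicate 1, and for SMURF1 only replicate 3 was higher. SMURF2 had 636, 750.3 and 1437 CPM, against 472, 799 and 1837 CPM at 0 µM. HECW1 had 1644, 1130.3 and 1476 CPM, against 1703, 1009.4 and 1546 CPM at 0 µM. HECW2 had 1716, 950.5 and 1235 CPM, against 1750, 912 and 1658 CPM at 0 µM. The replicate 3 library at 200 µM was lower for SMURF2 and HECW2 than its untreated partner. The fold changes of SMURF2, HECW1 and HECW2 were -0.16 ± 0.55, -0.026 ± 0.34 and -0.17 ± 0.38 on the log2 scale (SE).

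Among single guides at 200 µM, HECW2.7 had 27.0, 50.1 and 40.0 CPM, against 78.7, 50.1 and 70.7 CPM at 0 µM, with replicate 2 equal to within rounding. It was the only family guide lower without overlap (1.15%, against 0.619% of all guides). SMURF1.6 had 13.1, 7.29 and 71.5 CPM, against 132, 28.3 and 62.1 CPM at 0 µM, and a log2 fold change of -1.46 ± 1.09 (SE). Leaving out 1 library at a time moved it between -2.96 (without replicate 3 at 200 µM) and -0.67 (without replicate 1 at 0 µM). HECW2.8 completed the 5 lower guides of lowest p, with -0.72 ± 0.75, and ITCH.6, SMURF1.1 and WWP2.6 the higher ones, with 0.51 ± 0.77, 0.41 ± 0.65 and 0.40 ± 0.72 on the log2 scale (SE). Without 1 library HECW2.8 ranged from -1.28 to -0.37, ITCH.6 from 0.20 to 0.79, SMURF1.1 from 0.20 to 0.62 and WWP2.6 from 0.093 to 0.71. The values nearest to 0 came without replicate 3 at 0 µM for HECW2.8, replicate 2 at 200 µM for ITCH.6 and WWP2.6 and replicate 3 at 200 µM for SMURF1.1. In all 3 pairs 13 of 87 family guides were higher (14.9%) and 7 lower (8.05%), against 14.2% and 9.65% of all tested guides.

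Between the treated groups, at 1500 against 200 µM, nothing passed edgeR's test either. Its libraries also enter the comparisons with 0 µM. The background was 0% of 10337 guides and 0% of 1117 summed genes, with or without the block. At an unadjusted p under 0.05 there were 0 family guides against 21 of all guides (0.203%), and 0 family genes against 1 of all genes (0.0895%). With the block edgeR had 2 family guides under it (2.30%, against 1.95% of all guides), and 0 family genes (against 6.62% of all genes). HECW2 was higher in all 3 pairs, and ITCH, WWP1 and SMURF2 were lower in all 3, against 12.7% and 15.2% of all genes. The differences of HECW2 were 0.16, 0.12 and 0.14 on the log2 scale, the most even of the family, with a blocked fold change of 0.15 ± 0.094 (SE, adjusted p = 0.819 in edgeR). NEDD4 had 929, 823 and 1021 CPM at 1500 µM, against 988, 576 and 852 CPM at 200 µM, a fold change of 0.21 ± 0.29 on the log2 scale, and of 0.0092 without replicate 2 at 200 µM. WWP1 had -0.14 ± 0.33 and SMURF2 -0.18 ± 0.46 on that scale. No family gene differed without overlap (0.537% of all genes higher, 0.358% lower), and no family guide did (1.57% of all guides higher, 1.03% lower).

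Guides with the lowest p-values between the treated groups were NEDD4.5, SMURF1.3, NEDD4.6, ITCH.5 and NEDD4.8 on the higher side, with log2 fold changes between 0.53 and 3.36. SMURF2.2, SMURF1.2, SMURF2.1, WWP1.1 and SMURF1.1 were on the lower side, between -2.42 and -0.46. WWP1.1 had 154, 72.1 and 89.7 CPM at 1500 µM, against 152, 154 and 129 CPM at 200 µM. It was level in replicate 1 and lower in replicates 2 and 3. Of NEDD4 guides 9 of 10 were above 0 in this comparison, with a median of 0.13, and of WWP2 guides 8 of 10 were below 0, with a median of -0.12. The share above 0 in that fit, without the block, was 50.8% of all guides and 46.0% of the 87 family guides. In all 3 pairs 10 of 87 family guides were higher (11.5%) and 12 lower (13.8%), against 13.4% and 11.4% of all tested guides.

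Along the steps of dose over all 9 libraries, coded 0, 1 and 2, no family guide or gene passed (0% of all guides and 0% of all genes). With the block 0% of guides and 0.0895% of genes passed, which is TRAF3 alone. NEDD4L had the lowest blocked p of the family, with -0.18 ± 0.070 per step on the log2 scale (SE, adjusted p = 0.429 in edgeR), and -0.14 ± 0.25 without the block.

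Over the 9 libraries, log2(CPM + 1) of HECW1 and HECW2 had a Pearson r of 0.937, whereas HECW1 and NEDD4L had -0.891 and ITCH and SMURF1 had -0.942. These libraries share 3 replicate numbers, so the values describe the pools and carry no p. WWP2 and NEDD4 had smaller shares by replicate number, 4.73% and 43.4% of their spread, and 22.5% and 35.9% by dose. The medians for all summed genes were 81.5% and 5.07%. Both shares are parts of one total, so a small share of replicate number leaves more for dose, and no share was tested. The gene whose 9 levels were most like those of a member was RING1 for NEDD4 (r = 0.841), RNF130 for NEDD4L (0.973), RNF181 for ITCH (0.970), RNF214 for WWP1 (0.968), RNF13 for WWP2 (0.586), KBTBD6 for SMURF1 (0.990), VPS36 for SMURF2 (0.978), RNF34 for HECW1 (0.984) and UFL1 for HECW2 (0.973), each the best of 1116 genes.

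Other genes around the family were read from lists of relatives, partners and targets. All 18 listed HECT ligases outside the family were measured, and at 1500 against 0 µM 12 were above 0 and 6 below, with a median log2 fold change of 0.093. TRIP12, a ligase of the chromatin and damage response, had 791, 398 and 318 CPM at 1500 µM, against 477, 282 and 272 CPM at 0 µM. All 3 pairs were higher, and its fold change was 0.55 ± 0.45 (SE, adjusted p = 0.9996 in edgeR) and, with the block, 0.48 ± 0.20 (0.736). HECTD3 had 0.25 ± 0.31, HERC6 -0.25 ± 0.29 and UBE3A -0.26 ± 0.35 on the log2 scale.

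The 9 listed E2 enzymes, which charge HECT ligases with ubiquitin, had a median of -0.18 with 6 below 0. UBE2L3, an E2 that works with HECT and RBR ligases, had 731, 1195 and 649 CPM at 1500 µM, against 964.5, 1777 and 721 CPM at 0 µM. Its pairs were all lower, and the log2 fold change was -0.42 ± 0.42 (SE) and, with the block, -0.38 ± 0.16 (adjusted p = 0.736 in edgeR). UBE2D1 had -0.23 ± 0.27, UBE2E1 0.24 ± 0.31 and UBE2D4 0.24 ± 0.45 on this scale.

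Of 27 listed adaptors and regulators 16 were measured, 4 above and 12 below 0, with a median of -0.11. NDFIP2, a PY-motif adaptor that activates family members, had 681, 812 and 770.3 CPM at 1500 µM, against 701, 670.1 and 677 CPM at 0 µM. CBLB, a RING ligase, had 0.21 ± 0.37, TSG101, an ESCRT sorting subunit, -0.33 ± 0.41, and TNFAIP3, an NF-κB inhibitor, -0.38 ± 0.55 on the log2 scale. Of 29 listed substrates 10 were measured, 2 above and 8 below 0, with a median of -0.053. EGR2, a transcription factor, had 540.2, 1134 and 589 CPM at 1500 µM, against 917, 1349 and 854 CPM at 0 µM, a fold change of -0.46 ± 0.38 and, with the block, -0.52 ± 0.17 (adjusted p = 0.543 in edgeR). AXIN1 had 0.091 ± 0.43, RNF20 0.12 ± 0.80 and TRAF6 -0.21 ± 0.39. No gene of the 4 lists passed edgeR's test between any doses, blocked or not, and without the block none had an unadjusted p under 0.05. At 200 against 0 µM the medians of the ligases, E2 enzymes, adaptors and substrates were 0.0066, -0.076, -0.083 and -0.050, and at 1500 against 200 µM 0.020, -0.099, -0.032 and -0.021. Over all summed genes the median was -0.026 at 1500 against 0 µM, -0.033 at 200 against 0 µM and -0.012 at 1500 against 200 µM.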

How the data were processed

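Guides were counted in 9 libraries of U251 cells at 3 doses of temozolomide. The authors deposited 1 table of raw read counts per guide, and the submitters' processing notes name cutadapt 1.18, MAGeCK 0.5.8 and hg19 without their roles. Guides were kept when 3 or more of the 9 libraries held 10 or more counts, and the 10 guides of a gene were also summed. Each pair of doses was tested on its 6 libraries with edgeR's quasi-likelihood test (edgeR 4.0.16, limma 3.58.1, R 4.3.3, TMM, robust), with Benjamini-Hochberg adjustment over all guides or all genes at 0.05. Standard errors are the log2 fold change over the root of F. CPM were computed from the counts and TMM factors of summed genes. Each fit computed its own TMM factors, from the guides in the guide fits and from the summed genes in the gene fits. The test was also run on simulated counts drawn without a replicate effect. That run cannot show how the test behaves with the replicate differences seen here. DESeq2 1.42.0 and other settings were alternatives.

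The replicate numbers come from the titles. Deviations from the dose means of libraries with the same number correlated at r = 0.662 to 0.777 over all tested guides. The numbers were treated as pairs in the counts of direction and as a block in the blocked fits. The fits without the block, which are the main ones, held dose only and ignored the numbers. The guides named are the 5 of lowest p in each direction of each comparison and the most abundant guide of each gene. From each list the 2 genes of lowest p in each direction at 1500 against 0 µM are named, and for each member the gene of highest r. HECW2.1, ITCH.9, SMURF1.5, UBE2A and TRAF3 were named after their values were seen. Members and gene lists were chosen with earlier results of these data known. All 9 symbols matched the RefSeq table. Guide sequences were not used here.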

Additional observations from a re-analysis of the deposited data

How the results depend on the processing

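No family guide or gene passed at an adjusted p of 0.05 under any setting run. Over all features, where edgeR without a block called 0, DESeq2 with the replicate block called 6, 6 and 43 guides and 3, 1 and 24 summed genes at 1500 against 0, 200 against 0 and 1500 against 200 µM. DESeq2 without it called 1 summed gene at 1500 against 0 and 1 at 1500 against 200 µM, and edgeR with the block called 1 at 1500 against 0 µM and 1 along the dose steps. Pairing moved the fold changes of ITCH and HECW2 at 1500 against 0 µM to 0.0011 and 0.0097, and changed no family call.

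With library totals in place of TMM the median log2 fold change of all summed genes was -0.13, 0.022 and -0.15, against -0.026, -0.033 and -0.012 with TMM, and the share of genes above 0 was 28.8%, 55.2% and 18.2%, against 44.8%, 43.9% and 47.0%. With library totals 0 members were lower in all 3 pairs at 200 against 0 µM (8.68% of all genes), and at 1500 against 200 µM 0 were higher and 6 lower (32.8%). As 18.2% of all genes were above 0 there with totals, the 0 on the higher side does not set the family apart. With the summed genes scaled by TMM factors from guides, a check chosen after seeing the data, 3 members were lower at 200 against 0 µM (31.1%).

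Signs turned for small fold changes. At 1500 against 0 µM these were WWP2 without its most abundant guide (0.11) and HECW1 with DESeq2 (-0.0068), DESeq2 with the block (-0.0040) and totals (-0.066). At 200 against 0 µM these were SMURF2 without its top guide (0.031) and HECW1 with DESeq2 and the block (0.0014), totals (0.035) and without its top guide (0.12). At 1500 against 200 µM these were SMURF1 with DESeq2 (-0.00073) and totals (-0.11), and HECW1 with DESeq2 and the block (-0.012), totals (-0.10) and without its top guide (-0.069). The cause was not tested.

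Leaving out 1 library gave these log2 ranges across 0. At 1500 against 0 µM NEDD4L ranged from -0.92 to 0.089, ITCH from -0.34 to 0.26, WWP1 from -0.0100 to 0.52, WWP2 from -0.099 to 0.046, SMURF1 from -0.62 to 0.56, SMURF2 from -0.81 to 0.38, HECW1 from -0.21 to 0.20, HECW2 from -0.27 to 0.18 and WWP1.7 from -0.37 to 1.91. At 200 against 0 µM NEDD4L ranged from -0.83 to 0.21, ITCH from -0.23 to 0.46, SMURF1 from -0.63 to 0.55, SMURF2 from -0.58 to 0.56, HECW1 from -0.20 to 0.14, HECW2 from -0.40 to 0.012 and NEDD4.8 from -2.57 to 0.55. At 1500 against 200 µM NEDD4L ranged from -0.74 to 0.54, ITCH from -0.48 to 0.18, WWP1 from -0.33 to 0.078, SMURF1 from -0.46 to 0.48, SMURF2 from -0.67 to 0.26, HECW1 from -0.14 to 0.21 and HECW2 from -0.11 to 0.39. NEDD4 kept its sign under all settings in all 3 comparisons, but its fold change was -0.060 at 1500 against 0 µM without replicate 3 at 0 µM, and -0.22 at 200 against 0 µM without replicate 2 at 200 µM. WWP1 at 200 against 0 µM ranged from 0.16 (without replicate 2 at 0 µM) to 0.66 (without replicate 3 at 0 µM). Ranges of some single guides at 1500 against 0 µM were also wide on 1 side of 0, from -1.68 to -0.51 for SMURF1.6, -2.56 to -0.40 for SMURF2.2, -1.64 to -0.33 for SMURF2.1 and 1.11 to 3.69 for NEDD4.5.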
